A study of Mus musculus with 13 samples.

Results

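The tetraspanin genes Cd9, Cd81, Cd63, Cd82, Cd53, Cd37 and Cd151 were followed in mouse haematopoietic stem cells (HSCs), the rare bone marrow cells that maintain all blood lineages. They are 7 of the 13201 genes of the deposited table, found by matching its Ensembl identifiers to GENCODE M21 symbols, and all 7 were present. The genes were chosen by membership of the family and with differences between the 4 groups, measured in these same libraries, already known, so their values are a description and support nothing about the choice. The 13 libraries each hold the polyadenylated RNA of 100 sorted cells. They were prepared with Smart-seq2, which copies whole transcripts from small inputs and does not mark the RNA strand. The groups were untreated wild-type cells (WT; libraries D1, D2 and D3), untreated cells lacking the ERK-activating kinase MEK1 (KO; D4, D5 and D6), WT cells from mice given 5-fluorouracil (5-FU; A2, A3, A4 and D4) and KO cells from mice given 5-FU (A5, A6 and A8). 5-FU is a drug that kills dividing blood cells. The sources used here do not give strain, age, the way MEK1 was removed, the sorting gate, the 5-FU dose or the sampling time. They also do not say whether each library is a separate animal. P-values here therefore reflect library-to-library spread, part of which may be technical.

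Tetraspanins are small proteins that cross the membrane repeatedly and collect integrins, immunoglobulin-type receptors and proteases into shared membrane patches. CD9 and CD81 are close relatives that are best known for cell fusion, adhesion and, for CD81, the B cell co-receptor. CD63 travels between lysosomes, exosomes and the cell surface. CD82 and CD151 are tied to integrin-dependent adhesion, and CD37 and CD53 are found mainly on white blood cells. CD9 is also abundant on platelets and their precursors, the megakaryocytes.

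Levels are normalized counts, recovered from the deposited log2-scale values, and log2 differences are differences of those deposited values, which understate the change of weakly expressed genes. Recovered totals were 11416753 to 25380570 reads in 12 libraries and 45384866 in untreated WT D1, which was sequenced on both flowcells. By the labels, 5-FU WT D4 was sequenced on a different flowcell from all libraries other than untreated WT D1. A library with 0 reads of a gene could hold up to 3 reads by counting error alone, which is a normalized count of 0.979 to 4.35. The 5-FU WT libraries A3 and D4 were more alike (Pearson correlation 0.988 across genes) than other pairs of the same group (0.914 to 0.977). The labels give them as separate samples and they are counted as 2 of the 4 here, but whether they hold the same cells was not tested. The untreated libraries and 5-FU WT D4 are labelled 2015 and the other 5-FU libraries, A3 included, 2016. Fits with year as a term therefore rest on a year label for D4 that its likeness to A3 puts in doubt. In KO cells year and treatment cannot be told apart. With A3 and D4 averaged into 1 library, the calls between genotypes after 5-FU stayed for Cd9 (log2 difference -0.70, limma adjusted p = 0.0251) and Cd81 (-0.54, 0.0403). Map2k1, the MEK1 gene, was read at 905 to 1766 normalized counts in untreated WT, 545 to 750 in untreated KO, 584 to 1634 in WT after 5-FU and 304 to 460 in KO after 5-FU. The genotypes did not overlap in either condition, as for 11.5% of all genes tested in untreated cells and 27% after 5-FU. The untreated Map2k1 difference did not pass (limma, adjusted p = 0.46). After 5-FU it was -0.96 on the log2 scale (limma, adjusted p = 0.0339), a call lost in 10 of 23 alternatives. Of the WT libraries after 5-FU, A3 had 1634 and D4 1573.5 normalized counts of Map2k1, against 604 in A2 and 584 in A4. The call was lost with A3 and D4 averaged (limma, adjusted p = 0.11) and without A3 or D4. It was also lost without KO A5, A6 or A8. Map2k1 reads may come from transcript outside any deleted part, so Map2k1 checks the labels only in part. All 9 HSC markers were detected in every group, though not in every library. Their summed normalized count was 19757 to 21752 in untreated WT, 16032 to 18943 in untreated KO, 12385 to 16422 in WT after 5-FU and 7547 to 7893 in KO after 5-FU. In 5-FU WT A2, A3, A4 and D4, Fgd5 was 52.1, 0, 97 and 0, and Procr 1.16, 24.6, 165 and 28.6. Slamf1 and Ctnnal1 went the other way and were highest in these libraries. In libraries of 100 cells, fewer cells of one type and less RNA per cell cannot be told apart.

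Per kilobase of exon, 3 of the genes stood far above the other 4. Over the 13 libraries Cd81 averaged 3753 normalized counts per kilobase, Cd9 3321 and Cd63 2534, which places them at the 97.5, 97.1 and 96.1 percentiles of 12718 genes with a length. Cd53 averaged 224, Cd151 219 and Cd37 194 per kilobase, and Cd82 was lowest at 48.5, the 39.0 percentile. In untreated WT cells the order per kilobase was Cd81, Cd63, Cd9, then Cd151, Cd53 and Cd37, then Cd82. There the wide Cd53 range overlapped those of Cd151 (235 to 299) and Cd37 (147 to 174), which did not overlap each other. Untreated KO cells kept Cd81, Cd63 and Cd9 in that order, while Cd53 was last, below Cd82. After 5-FU Cd9 was first in both genotypes. WT cells then had Cd9, Cd81 and Cd63 at 4949, 3557 and 1753 per kilobase with no overlap between neighbours. In KO cells Cd9 stood at 2925, above Cd81 at 2389 and Cd63 at 2230, and the last 2 overlapped. With the longest transcript as length in place of the union of exons, Cd53 and Cd37 traded places in WT cells, both untreated and after 5-FU, and Cd9 passed Cd63 in untreated KO.

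**Figure D1:**
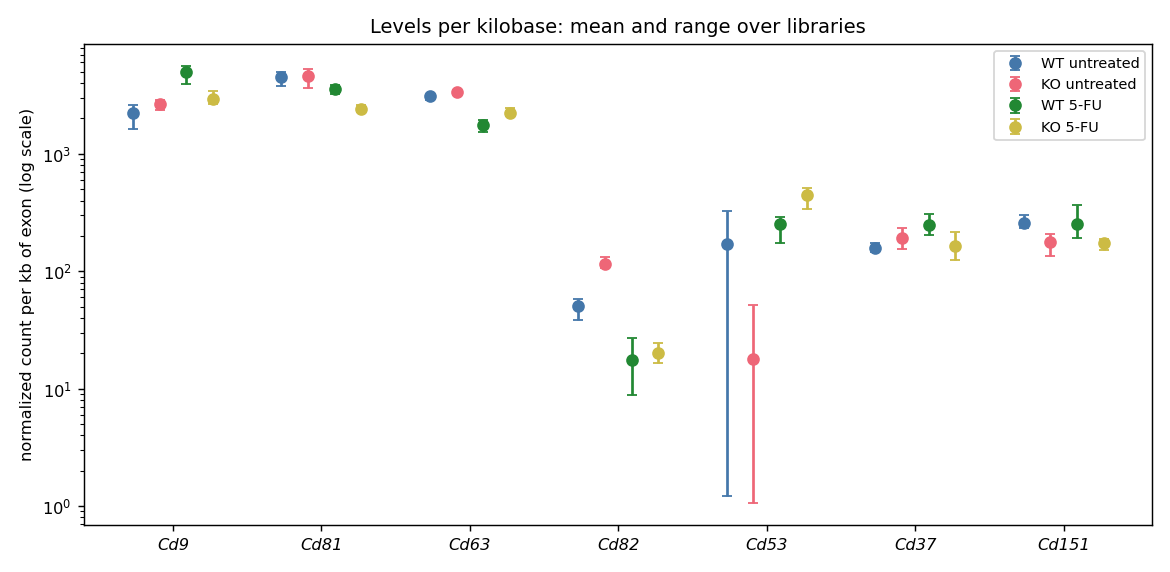
Normalized counts per kilobase of exon on a log axis, with points for group means and whiskers for the lowest and highest library. Cd81, Cd9 and Cd63 lie above 1500 in every group, and Cd53 in untreated cells spans from 1.06 to 327.

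**Figure D2:**
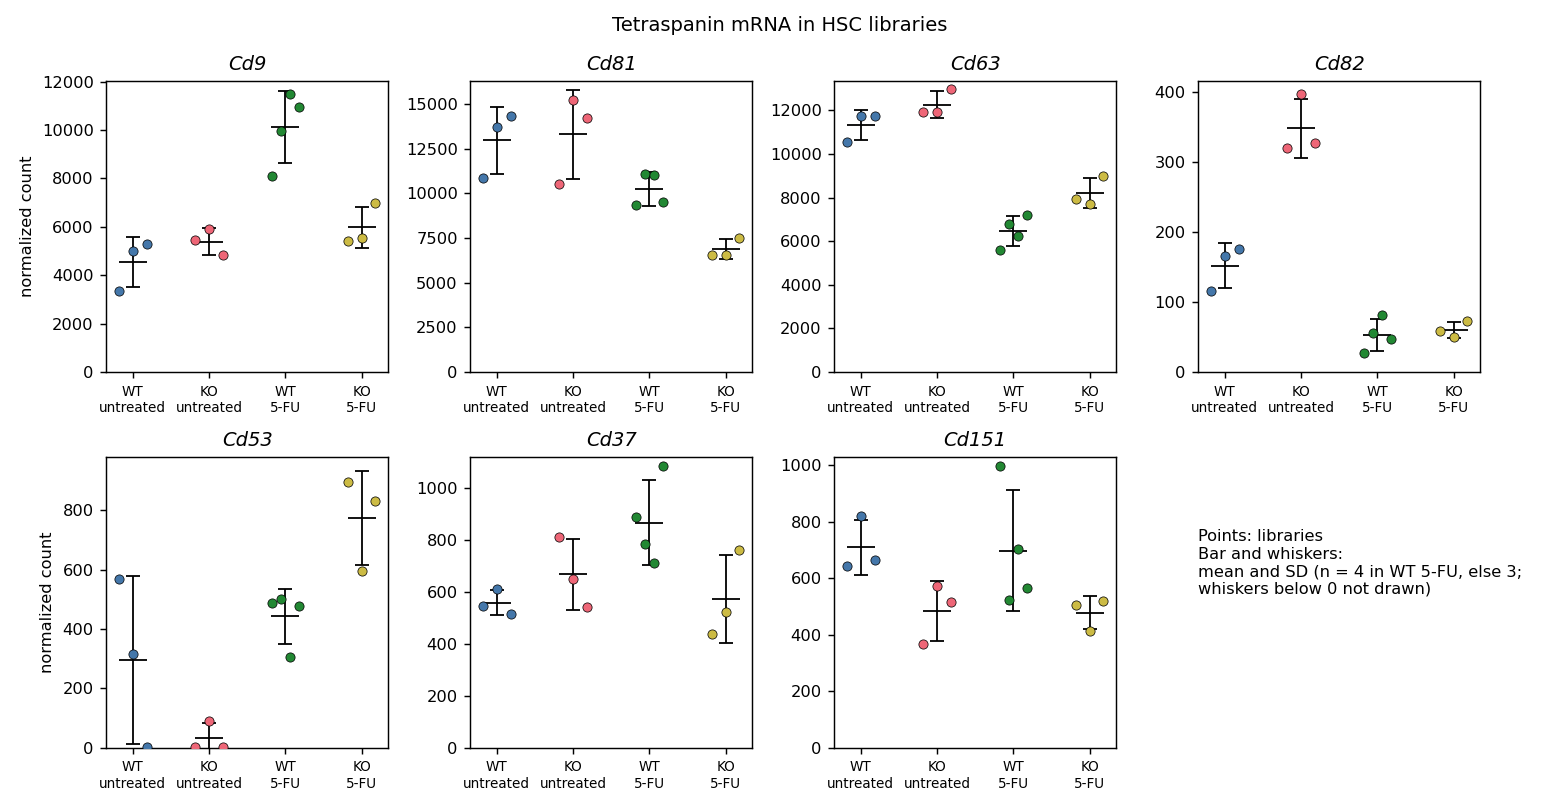
Normalized count of each gene in every library by group, with mean and SD (4 libraries in WT after 5-FU, otherwise 3) on axes that start at 0. Cd9 is highest in WT after 5-FU, where the 4 libraries lie between 8081 and 11483.

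Cd9 (chromosome 6, 125460266 to 125494791, minus strand, GRCm38) rose after 5-FU in WT cells, while a change in KO cells was not detectable. Untreated libraries had 3359, 5015 and 5276 normalized counts in WT and 5457, 5898 and 4827 in KO. After 5-FU the WT libraries had 8081, 9964, 11483 and 10939, and KO libraries after 5-FU 5416, 5550 and 6968. All 4 WT libraries after 5-FU lay above all 9 others. The mean in WT rose from 4550 ± 1040 (SD, n = 3) to 10117 ± 1496 (SD, n = 4), which is 2.22-fold and a log2 difference of 1.10 ± 0.16 (SE; limma, adjusted p = 0.000607 over 12846 genes). With year as a term the log2 difference was 1.22 (limma, adjusted p = 0.0206). In KO cells the same contrast gave 5978 ± 860 (SD, n = 3) against 5394 ± 539 (SD, n = 3), a log2 difference of 0.13 with a 95% interval of -0.23 to 0.50 (limma, adjusted p = 0.733).

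After 5-FU, Cd9 in KO cells was 59.1% of its level in WT cells, a log2 difference of -0.72 ± 0.16 (SE; limma, adjusted p = 0.00923). This held with 5-FU WT D4 left out, so that all libraries compared are labelled 2016 and share a flowcell (-0.68, limma adjusted p = 0.0311). It missed the threshold without KO A5 (adjusted p = 0.0541) or KO A6 (0.0536). Untreated KO and WT cells differed by 0.25 on the log2 scale, with a 95% interval of -0.12 to 0.62. The genotype effect after 5-FU minus that in untreated cells was -0.97 (limma interaction, adjusted p = 0.0393). That interaction was lost in 12 of 22 alternatives, with a highest adjusted p of 0.11, and 9 of these 12 left out a single library: untreated WT D1, untreated KO D4, D5 or D6, 5-FU WT A3, A4 or D4, or 5-FU KO A5 or A6.

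Marker sums or single markers of several other cell types were also highest in the 4 WT libraries after 5-FU. Of 8 listed megakaryocyte markers (such as Pf4, Gp9, Vwf and Treml1) 7 were in the table, and none of them was at 0 in every library of any group. Their summed normalized count was 3477 to 5105 in untreated WT, 3784 to 7393 in untreated KO, 29442 to 51840 in WT after 5-FU and 4167 to 7150 in KO after 5-FU. Mast cell and basophil markers (3 of 5 in the table) summed to 172 to 1299, 291 to 335, 1875 to 2354 and 257 to 806 in the same order of groups. Nkg7, the 1 of 5 T and NK cell markers in the table, was 1763 to 4435, 1481 to 3448, 5763 to 6737 and 1697 to 3810. Kdr, the 1 of 5 endothelial and stromal markers in the table, was 0 to 2.32, 0 to 51.8, 31.2 to 157 and 0 to 25.5. WT after 5-FU thus overlapped untreated KO for Kdr. Klf1, an erythroid transcription factor named after its values were seen, was 20.8 to 402, 182 to 568, 848 to 2421 and 187 to 498. Neutrophil markers (6 of 7 in the table) summed to 4506 to 5085, 4408 to 4956, 3998 to 5782 and 2247 to 2390. This sum was lowest in KO after 5-FU. Prtn3 made up most of it, at 3519 to 5012 outside KO after 5-FU and 2212 to 2361 in it. S100a8, S100a9 and Lcn2 had their highest values in WT after 5-FU. Lcn2 was 35.2 to 91.4 there and at most 1.64 in the other groups. Mpo and Elane were at 0 in many libraries. Pf4 made up most of the megakaryocyte sum in WT after 5-FU, at 18815 to 36813. Ppbp went another way, with 54.5 to 296 in WT after 5-FU and up to 357 in untreated KO. The others of the 7 were each higher in all 4 WT libraries after 5-FU than in any other library. Fcer1a made up most of the mast cell and basophil sum in WT after 5-FU, at 1254 to 1720. Cpa3 was highest in untreated WT D1 (1110) and Gzmb in 5-FU KO A5 (140). The part of these cell types in the Cd9 result was not tested.

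**Figure D3:**
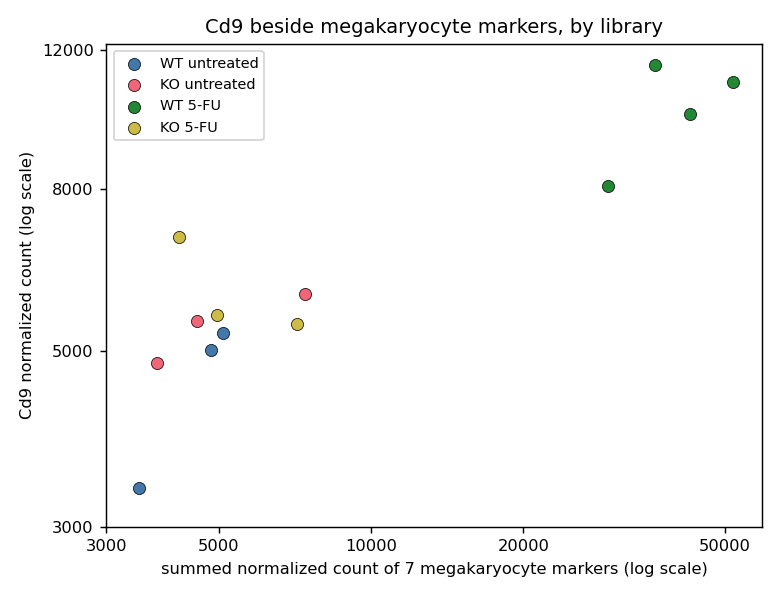
Cd9 against the summed normalized count of the 7 megakaryocyte markers, 1 point per library, both axes log scaled. The 4 WT libraries after 5-FU form a separate cloud at high values of both, and the other 9 lie at sums of 3477 to 7393.

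Cd81 (chromosome 7, 143052739 to 143067934, plus strand) fell after 5-FU in KO cells. Without treatment, WT libraries had 10855, 13728 and 14315 normalized counts and KO libraries 10504, 15248 and 14219. The WT libraries after 5-FU had 9357, 11089, 11010 and 9502, and KO libraries after 5-FU 6544, 6571 and 7521. The 3 KO libraries after 5-FU lay below all 10 others. In KO cells the mean fell from 13324 ± 2495 (SD, n = 3) to 6879 ± 557 (SD, n = 3), a log2 difference of -0.90 (limma, adjusted p = 0.00235). With year as a term the difference was -1.03 and the call was lost (limma, adjusted p = 0.162). In WT cells the difference was -0.32, with a 95% interval of -0.62 to -0.02 and an adjusted p of 0.189 by limma.

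Between genotypes after 5-FU, Cd81 in KO was 67.2% of the WT level, 6879 ± 557 (SD, n = 3) against 10240 ± 938 (SD, n = 4). The log2 difference was -0.55 ± 0.14 (SE; limma, adjusted p = 0.0206). It missed the threshold in 5 of 23 alternatives: voom on the recovered reads (0.0646) and leaving out WT A3 (0.0611), WT A4 (0.0509), KO A5 (0.0851) or KO A6 (0.0884). The interaction, -0.58, did not pass (limma, adjusted p = 0.158), so the genotype effect on Cd81 was not shown to depend on 5-FU. The HSC marker sum and the neutrophil marker sum, which is mostly Prtn3, were lowest in the same 3 KO libraries. Their part in the Cd81 result was not tested.

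Tspan32, another tetraspanin, lies 33.1 kb upstream of Cd81 on chromosome 7 (143005046 to 143019644, plus strand) and is expressed mainly in blood cells. Its normalized counts were 5139, 6337 and 6476 in untreated WT libraries and 6310, 5881 and 5935 in untreated KO libraries. Those of WT libraries after 5-FU were 7587, 8930, 6616 and 8823, and KO libraries after 5-FU 3981, 3108 and 3491. The 3 KO libraries after 5-FU were below all 10 others, and the 4 WT libraries after 5-FU were above all 9 others. Tspan32 in KO after 5-FU was 44.2% of WT, a log2 difference of -1.09 (limma, adjusted p = 9.69e-05), and this passed in all 23 alternatives. Its interaction was -1.11 (limma, adjusted p = 0.00907) and passed in all 22 alternatives. The fall in KO cells after 5-FU, -0.72 (limma, adjusted p = 0.00761), was lost with year as a term (-0.53, adjusted p = 0.62) and without 5-FU KO A6. The megakaryocyte sum, the mast cell and basophil sum, Nkg7 and Klf1 were likewise highest in WT after 5-FU. The HSC marker sum and the neutrophil marker sum, which is mostly Prtn3, were lowest in KO after 5-FU. The part of these cell types in the Tspan32 result was not tested.

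The sequences just before the first exon of Cd9, Cd81 and Tspan32 are shown because these 3 of the 4 tetraspanins lower in KO than in WT after 5-FU have a stretch that lies outside the annotated span of the gene. They come from RefSeq (GRCm38.p6), run 5′ to 3′ in the direction of transcription and end where the first annotated exon begins. Capitals mark 5 short motifs searched on both strands: CCGGAA (ETS factor core), GATAA (GATA core), TGTGGT (RUNX core), GGGCGG (SP and KLF box) and TGACTCA (AP-1 site). Cd9 is chr6:125494792-125495010 on the minus strand (219 bases), Cd81 chr7:143052500-143052738 on the plus strand (239 bases) and Tspan32 chr7:143004796-143005045 on the plus strand (250 bases).
Cd9: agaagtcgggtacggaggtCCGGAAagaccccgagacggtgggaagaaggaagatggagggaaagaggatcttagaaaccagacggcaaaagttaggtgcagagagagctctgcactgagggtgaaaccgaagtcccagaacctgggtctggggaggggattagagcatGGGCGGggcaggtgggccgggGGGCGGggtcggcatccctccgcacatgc
Cd81: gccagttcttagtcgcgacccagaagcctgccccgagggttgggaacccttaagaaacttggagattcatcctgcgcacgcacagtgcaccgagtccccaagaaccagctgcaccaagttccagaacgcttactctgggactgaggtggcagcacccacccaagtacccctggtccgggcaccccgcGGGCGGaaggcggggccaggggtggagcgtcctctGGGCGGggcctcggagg
Tspan32: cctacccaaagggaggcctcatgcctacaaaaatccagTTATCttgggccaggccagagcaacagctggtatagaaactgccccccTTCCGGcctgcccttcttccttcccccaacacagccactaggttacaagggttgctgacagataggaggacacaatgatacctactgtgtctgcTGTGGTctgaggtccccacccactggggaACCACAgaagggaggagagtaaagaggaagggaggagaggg
The Cd9 stretch has 1 ETS core and 2 SP boxes, the Cd81 stretch 2 SP boxes, and the Tspan32 stretch 1 ETS core, 1 GATA core and 2 RUNX cores. Of 32817 windows, 9.38% hold an ETS core and 28.3% an SP box within 219 bases, and 31.1% an SP box within 239 bases. Within 250 bases, 12% hold an ETS core, 22.6% a GATA core and 14% a RUNX core. The fourth gene, Tspan8, has its RefSeq start inside the span given for it by GENCODE, so its 237-base stretch (chr10:115817034-115817270, plus strand) is not printed; it holds 0 of the 5 motifs, where 30.9% of windows that long hold an SP box and 10.9% an ETS core. A match describes letters in the window and is no evidence of binding.

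Cd63 (chromosome 10, 128900989 to 128912822, plus strand) fell after 5-FU in both genotypes. The untreated libraries gave 10564, 11730 and 11747 normalized counts in WT and 11909, 11933 and 12983 in KO. Those after 5-FU gave 5607, 6793, 6224 and 7189 in WT and, in KO, 7917, 7712 and 9000. All 7 libraries after 5-FU lay below all 6 untreated libraries. In WT cells the level fell to 56.9% of untreated, from 11347 ± 678 (SD, n = 3) to 6453 ± 690 (SD, n = 4; log2 difference -0.78, limma adjusted p = 0.000633). With year as a term the WT difference was -0.63 and missed the threshold (adjusted p = 0.0934). In KO cells Cd63 fell to 66.9%, from 12275 ± 613 (SD, n = 3) to 8210 ± 692 (SD, n = 3; log2 difference -0.56, limma adjusted p = 0.0129). That call was lost with year as a term (-0.36, adjusted p = 0.724) and without untreated KO D6, 5-FU KO A5 or 5-FU KO A6 (up to 0.0749). After 5-FU the KO libraries lay above the WT libraries without overlap, by 0.33 on the log2 scale, which did not pass (limma, adjusted p = 0.0808).

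Cd82 (chromosome 2, 93419111 to 93463140, minus strand) was low in every group and lowest after 5-FU. It was read at 115, 166 and 175 normalized counts in untreated WT and at 321, 397 and 327 in untreated KO. Libraries after 5-FU had in WT 26.6, 56.5, 81.8 and 46.5, and KO libraries after 5-FU 59.1, 49.5 and 72.8. Every untreated KO library was above every untreated WT library, and every library after 5-FU was below every untreated one. In KO cells Cd82 fell 5.76-fold, from 348 ± 42.6 (SD, n = 3) to 60.5 ± 11.7 (SD, n = 3; log2 difference -0.996, limma adjusted p = 0.00545), a call lost with year as a term (log2 difference -1.04, adjusted p = 0.349). In WT cells the mean after 5-FU was 34.8% of untreated, 52.8 ± 22.9 (SD, n = 4) against 152 ± 32.2 (SD, n = 3), a log2 difference of -0.49 that did not pass (limma, adjusted p = 0.115). The mean of untreated KO was 2.29-fold that of untreated WT, with a log2 difference of 0.57 that did not pass either (limma, adjusted p = 0.321). After 5-FU the genotypes overlapped, with a log2 difference of 0.06 and a 95% interval of -0.32 to 0.44.

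Cd53 (chromosome 3, 106759921 to 106790149, minus strand) was uneven among untreated libraries and present in all libraries after 5-FU. Untreated WT D1, D2 and D3 had 570.0, 316 and 2.11 normalized counts, and untreated KO D4, D5 and D6 had 1.84, 89.9 and 2.12. In WT libraries after 5-FU they were 487, 501, 305 and 478, and KO libraries after 5-FU 896, 594 and 833. WT D3, KO D4 and KO D6 each held 2 reads of Cd53, fewer than the 3 reads that a count of 0 allows. WT D1 held 1746 reads of it. The untreated mean therefore does not describe any single library, and no fold is given for it.

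After 5-FU Cd53 rose in KO cells by 2.06 ± 0.39 (SE) on the log2 scale, to 774 ± 159 (SD, n = 3; limma, adjusted p = 0.00437). With year as a term the difference was 2.17 and the call was lost (limma, adjusted p = 0.294). With voom, whose log2 scale is not damped for low counts, it was 6.47 and the call was lost too (adjusted p = 0.114). In WT cells the difference was 0.61, with a 95% interval of -0.16 to 1.37 and an adjusted p of 0.345 by limma. All 3 KO libraries after 5-FU stood above all 4 WT libraries after 5-FU, yet the log2 difference of 0.52 did not pass (limma, adjusted p = 0.407). Markers of B cells, in which Cd53 is also high, summed to 901 to 2328 normalized counts in untreated WT, 1204 to 1636 in untreated KO, 1165 to 1955 in WT after 5-FU and 554 to 795 in KO after 5-FU, for the 3 of 6 listed that were in the table. Cd79b made up nearly all of that sum, while Ebf1 was at most 17.9 and Ms4a1 at most 22.8 in any library. The part of B cells in the Cd53 result was not tested.

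Cd37 (chromosome 7, 45233632 to 45239115, minus strand) did not pass in any comparison. Its untreated WT libraries had 547, 612 and 518 normalized counts and untreated KO libraries 814, 651 and 542. Treated libraries had 891, 784, 711 and 1088 in WT and, in KO, 437, 522 and 764. In WT cells the libraries after 5-FU stood above the untreated ones without overlap, by 0.42 on the log2 scale (limma, adjusted p = 0.198). After 5-FU the genotypes overlapped, with KO lower by -0.42 (95% interval -0.82 to -0.01; limma, adjusted p = 0.186).

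Cd151 (chromosome 7, 141467392 to 141471473, plus strand), the partner of laminin-binding integrins, did not pass in any comparison either. Levels were 643, 820 and 663 normalized counts in untreated WT libraries and 367, 571 and 515 in untreated KO libraries. After treatment, WT libraries had 997, 523, 704 and 565, and KO libraries after 5-FU 504, 412 and 519. KO lay below WT without overlap both in untreated cells (log2 difference -0.36, limma adjusted p = 0.599) and after 5-FU (-0.33, limma adjusted p = 0.323). The 5-FU difference was -0.04 in WT, with a 95% interval of -0.45 to 0.38, and 0.00 in KO, with an interval of -0.45 to 0.44.

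**Figure D4:**
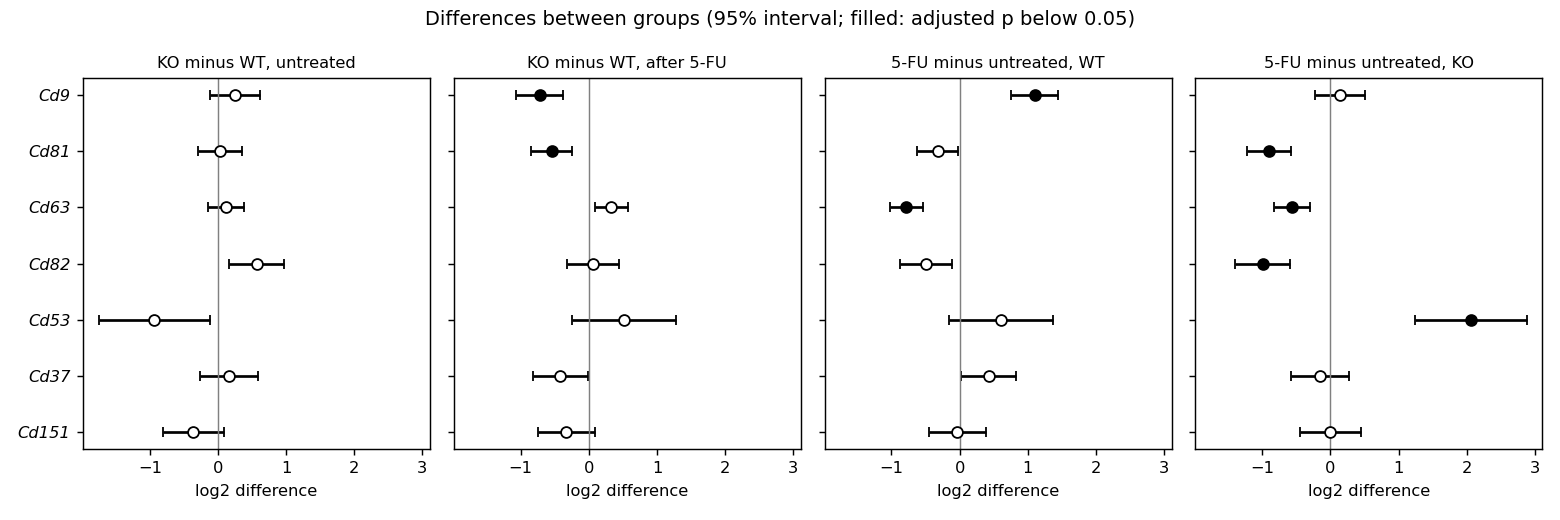
Log2 differences of the 7 genes in 4 comparisons with 95% intervals from limma; filled points have an adjusted p below 0.05. Cd9 lies at 1.10 in the WT response to 5-FU and at 0.13 in the KO response, and Cd53 has the widest intervals.

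Counted over the list, 0 of 7 genes passed between untreated KO and WT cells by limma, where 0.0311% of all genes tested passed. At an unadjusted p under 0.05, 2 of the 7 passed with limma and 1 with voom, where 10% and 14% of all genes did; voom also called 0 after adjustment. Between KO and WT after 5-FU, 2 of 7 passed, Cd9 and Cd81, both lower, against 10.9% of all genes in either direction and 5.5% lower. The call count fell to 1 without WT A3 or WT A4 and to 0 without KO A5 or KO A6. In the WT response to 5-FU 2 of 7 passed, Cd9 higher and Cd63 lower, against 6.68% of all genes. In the KO response 4 of 7 passed, Cd53 higher and Cd63, Cd81 and Cd82 lower, against 5.92%, and with year as a term 0 passed. The interaction passed for 1 of 7, Cd9, against 2.84%. Since the list was chosen with results known, nothing about tetraspanins as a class is read from these counts. The comparisons share groups, so their calls are not independent.

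Groups did not overlap for 3 of the 7 genes between untreated genotypes (Cd63 and Cd82 above, Cd151 below), where 11.5% of all genes did not. After 5-FU this held for 5 of 7 genes between genotypes, against 27% of all genes. It held for 4 of 7 in the WT response, against 16.7%, and for 4 of 7 in the KO response, against 28.8%. The median log2 difference of the 7 genes was 0.11 between untreated genotypes, -0.33 between genotypes after 5-FU, -0.04 in the WT response and -0.15 in the KO response. The median of all genes lay between -0.02 and 0.00 in these comparisons.

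Among 25 further tetraspanin genes listed, 18 were in the table and 17 were tested; Upk1a was too low. The 5 highest per kilobase were Tspan13 (3532 normalized counts per kilobase), Tspan4 (1982), Tspan31 (1303), Tspan3 (1136) and Tspan32 (970.0). Tspan31 shares 29.2% of its exon bases with Cdk4 on the opposite strand, so its level is uncertain, and Tspan4 shares 13.4% with Chid1. In untreated KO against WT 0 of 17 passed, and at an unadjusted p under 0.05 1 passed with limma and 2 with voom (10% and 14% of all genes). Between genotypes after 5-FU 2 of 17 passed, Tspan32 and Tspan8, both lower in KO, against 10.9% of all genes. Of the 17, 13 lay lower, with a median log2 difference of -0.20, where 51.6% of all genes lay lower with a median of -0.02. In the WT response Tspan8 and Tspan17 rose (6.68% of all genes passed), and in the KO response Tspan32, Tspan33 and Tspan4 fell (5.92%). Tspan32 and Tspan8 passed in the interaction (2.84%).

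Tspan8 (chromosome 10, 115816832 to 115849893, plus strand) is a tetraspanin best known from epithelial and tumour cells, and it was low outside WT cells after 5-FU. The untreated WT libraries had 18.9, 0 and 21.1 normalized counts and untreated KO libraries 62.6, 59.7 and 142. WT libraries after 5-FU had 263, 430, 277 and 318, and KO libraries after 5-FU 41.7, 28.3 and 59.8. The 4 WT libraries after 5-FU stood above all 9 others. Tspan8 rose 24.1-fold in WT after 5-FU, from 13.4 ± 11.6 (SD, n = 3) to 322 ± 75.9 (SD, n = 4; log2 difference 1.37, limma adjusted p = 0.000383). KO after 5-FU, at 43.3 ± 15.8 (SD, n = 3), was 13.4% of WT (log2 difference -1.05, limma adjusted p = 0.00182), a call lost with pseudocounts of 0.5 or 1 on the normalized counts (up to 0.112). The interaction of -1.63 (limma, adjusted p = 0.00671) passed in all 22 alternatives. The megakaryocyte, mast cell and basophil, Nkg7 and Klf1 values given with Cd9 were high in the same 4 libraries, and their part in the Tspan8 result was not tested.

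The other calls among these tetraspanins were less stable. Tspan4, which lies 3.77 kb from Cd151 on chromosome 7, fell in KO after 5-FU from 5200 ± 728 (SD, n = 3) to 2801 ± 132 (SD, n = 3; log2 difference -0.80, limma adjusted p = 0.0158). Tspan33 fell in KO from 274 ± 107 to 18.6 ± 1.05 (SD, n = 3 each; log2 difference -1.13, limma adjusted p = 0.0159). Both were lost with voom (-0.85 and -3.71 on its scale), with year as a term (-0.87 and -0.65) and without 3 or 4 single libraries: untreated KO D6, 5-FU KO A5 or A8 for both, and 5-FU KO A6 for Tspan33. Tspan17 rose in WT from 7.87 ± 8.11 (SD, n = 3) to 107 ± 69.5 (SD, n = 4; log2 difference 0.72, limma adjusted p = 0.0351) and lost its call in 13 of 23 alternatives. Among those 13 were leaving out untreated WT D1 or D3, 5-FU WT A3 or D4, and 5-FU KO A5.

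**Figure D5:**
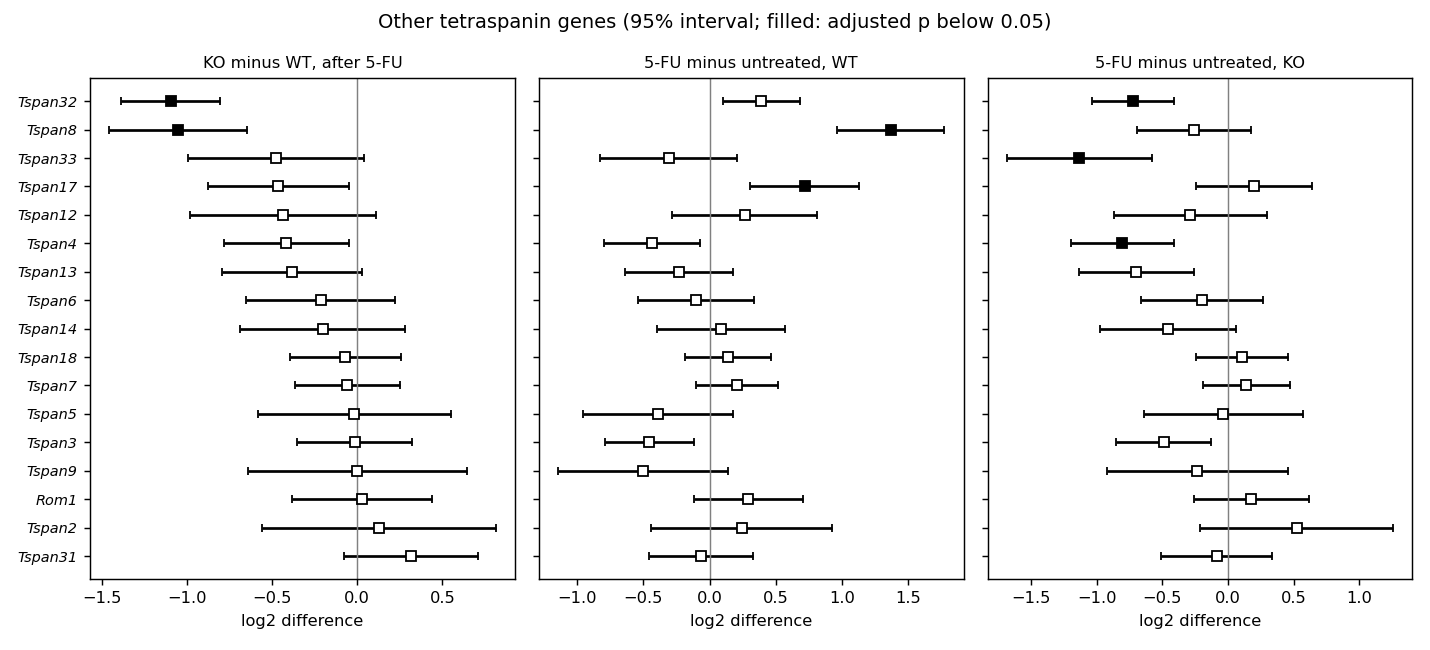
Log2 differences of the 17 other tetraspanin genes tested, with 95% intervals from limma; filled squares have an adjusted p below 0.05. Tspan32 and Tspan8 stand at -1.09 and -1.05 between genotypes after 5-FU, apart from the other 15.

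Genes whose products bind or modify tetraspanins were counted on a list of 42, of which 36 were in the table and 35 were tested. Between untreated genotypes 0 of the 35 passed, with 6 at an unadjusted p under 0.05 by limma and 8 by voom (10% and 14% of all genes). Between genotypes after 5-FU 6 of 35 were lower in KO (Ifitm1, Ifitm3, Itga2b, Itgb3, Kit and Prkca), where 5.5% of all genes were, and 0 higher; the Ifitm1 call was lost in 11 of 23 alternatives (highest adjusted p 0.204) and the Ifitm3 call in 9 (0.145). In the WT response 5 of 35 rose (Itga2b, Itga5, Itgb2, Itgb3 and Prkca) and 2 fell (Dpp4 and Ifitm1), against 6.68% of all genes in either direction. Of these, Itga2b and Ifitm1 passed in all 23 alternatives, while Itga5 was lost in 17, Prkca in 11, Itgb3 in 6, Itgb2 in 4 and Dpp4 in 1. Leaving out untreated WT D1 alone ended the Itga5, Prkca and Itgb3 calls, D2 the Prkca and Itgb3 calls, and D3, 5-FU WT A3 or 5-FU WT D4 the Itga5 and Prkca calls. The Itga5 call was also lost without untreated KO D4, D5 or D6, 5-FU WT A4, or 5-FU KO A5, A6 or A8. In the KO response 2 of 35 rose (Adam10 and Cd47) and 2 fell (Ifitm1 and Kit), against 5.92%. All 4 were lost with year as a term: Kit at -1.25 (limma, adjusted p = 0.272), Cd47 at 0.54 (0.588), Ifitm1 at -1.99 (0.0534) and Adam10 at 1.13 (0.184). Cd47 was also lost with quantile scaling and without untreated KO D6, 5-FU KO A6 or A8. In the interaction Itga2b and Itgb3 passed, both negative, against 2.84%, with Itgb3 lost in 11 of 22 alternatives. Itga2b and Itgb3 encode the platelet integrin that CD9 accompanies, and Itga2b is also on the megakaryocyte marker list. Itga2b in WT libraries after 5-FU was 2532, 4436, 2281 and 4274 normalized counts, against 638, 710, 533 in KO (log2 difference -1.89, limma adjusted p = 7.78e-05), and these groups did not overlap. Itgb3 in WT libraries after 5-FU was 1080, 732, 945 and 713, against 160, 18.9 and 161 in KO (log2 difference -1.62, limma adjusted p = 0.000701). Here too the megakaryocyte, mast cell and basophil, Nkg7 and Klf1 values given with Cd9 were high in the same 4 libraries, and their part was not tested.

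Kit, the stem cell factor receptor, was 1536 ± 94.3 (SD, n = 3) in KO after 5-FU against 4325 ± 687 (SD, n = 4) in WT, a log2 difference of -1.29 (limma, adjusted p = 0.000599). Prkca, the kinase that tetraspanins bring to integrins, was 111 ± 48.4 (SD, n = 3) against 906 ± 409 (SD, n = 4), a log2 difference of -1.56 (limma, adjusted p = 0.00161). Ifitm1, an interferon-inducible membrane protein, fell after 5-FU in WT from 14841 ± 1990 (SD, n = 3) to 4857 ± 457 (SD, n = 4) and in KO from 15059 ± 5428 to 3018 ± 225 (SD, n = 3 each). Its log2 differences were -1.53 and -2.12 (limma, adjusted p = 0.000115 and 4.35e-05), and the KO call was lost with year as a term (-1.99, adjusted p = 0.0534). Adam10, the protease that tetraspanins of the Tspan5 and Tspan14 group escort, rose in KO from 2223 ± 340.1 to 4848 ± 456 (SD, n = 3 each; log2 difference 1.01, limma adjusted p = 0.0025), a call lost with year as a term (log2 difference 1.13, adjusted p = 0.184).

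On a list of 25 genes of the lysosome and vesicle route that CD63 follows, all in the table and tested, 0 passed between untreated genotypes, with 4 at an unadjusted p under 0.05 by limma and 7 by voom (10% and 14% of all genes). Between genotypes after 5-FU 3 of 25 passed, 1 higher in KO (Vamp7) and 2 lower (Rab27b and Selp), against 10.9% of all genes. In the WT response 3 of 25 rose (Selp, Rab27b and Rab35) and 1 fell (Cd68), against 6.68%. In the KO response 0 passed by limma or voom, with 7 and 3 at an unadjusted p under 0.05 (20% and 17.3% of all genes). In the interaction Rab27b and Selp passed, both negative, against 2.84%. Selp, the platelet granule and endothelial adhesion protein that CD63 accompanies, rose in WT from 194 ± 33.3 (SD, n = 3) to 3164 ± 786 (SD, n = 4; log2 difference 2.75, limma adjusted p = 5.93e-06). In KO after 5-FU Selp was 1022 ± 399 (SD, n = 3), lower than WT by a log2 difference of -1.36 (limma, adjusted p = 0.00174). Rab27b, a GTPase of vesicle release, rose in WT from 474 ± 226 to 2056 ± 547 (n = 3 and 4, SD; log2 difference 1.58, limma adjusted p = 0.000677) and stood at 535 ± 87.8 (SD, n = 3) in KO. Selp and Rab27b were highest in the 4 libraries with the high megakaryocyte, mast cell and basophil, Nkg7 and Klf1 values, whose part was not tested.

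Rab35, another GTPase of that route, rose in WT to 5.25-fold of untreated (log2 difference 1.16, limma adjusted p = 0.00246), lost with year as a term (1.22, adjusted p = 0.0815). The lysosomal protein gene Cd68 fell in WT from 643 ± 58.7 (SD, n = 3) to 87.9 ± 48.7 (SD, n = 4; log2 difference -1.41, limma adjusted p = 0.000607). Cd68 also marks macrophages, whose 4 markers in the table, Cd68 included, summed to 712 to 1274 normalized counts in untreated WT and 49.2 to 600.1 in WT after 5-FU. The sum was 239 to 487 in untreated KO and 276 to 636 in KO after 5-FU. Cd68 itself was 606 to 711 in untreated WT and 47.8 to 159 in WT after 5-FU. In the same order, Csf1r was 1.16 to 156 and 0.664 to 4.63, C1qa 0 to 125 and 0 to 117, and C1qb 0 to 381 and 0 to 404. The part of macrophages in the Cd68 result was not tested. Vamp7 was 1396 ± 252 (SD, n = 3) in KO against 716 ± 177 (SD, n = 4) in WT after 5-FU (log2 difference 0.72, limma adjusted p = 0.0366), lost in 8 of 23 alternatives, 6 of them leaving out a 5-FU library: WT A3, A4 or D4, or KO A5, A6 or A8.

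Genes most like each member over the 13 libraries, by Pearson correlation of the deposited values, are given as a description; the points share groups, so a shared group difference is enough for a high value. They were F2rl2 (0.946), Chek2 (0.940) and Csrp3 (0.939) for Cd9, and Rtl8c (0.966), Tagap1 (0.959) and Uba7 (0.937) for Cd81. Cd63 was most like Wfdc2 (0.960), Bex1 (0.955) and Fam69b (0.948), and Cd82 was most like Ly6e (0.950), Asb13 (0.914) and Sult1a1 (0.910). Cd53 was most like Emilin2 (0.942), Runx3 (0.907) and Ranbp2 (0.887). Lower values were found for Cd37 with Rpl13a (0.857), Sirt6 (0.854) and Bin2 (0.852) and for Cd151 with Ptprj (0.908), Tmem50b (0.854) and Ngdn (0.841). Among the 7 genes themselves, Cd63 and Cd82 had the highest correlation (0.872), while Cd53 with Cd82 (-0.818) and Cd9 with Cd63 (-0.741) had the most negative ones. Exon overlap on the opposite strand touches 10.7% of the exon bases of Cd9, 7.04% of Cd151, 3.61% of Cd81 and 0.369% of Cd37, and 0 bases of Cd53, Cd63 and Cd82.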

How the data were processed

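Polyadenylated RNA of 13 libraries was measured, and the authors deposited one table of log2-scale variance-stabilized values. Per the submitters' processing notes these were made with Trimmomatic, Bowtie 1.1.1, the mm10 genome and DESeq2. The sources used here do not give the counting tool, annotation or strand setting. The transformation was inverted (value at 0: 7.6484) to recover reads, which were whole within 0.1 for 100% of values, and normalized counts (reads divided by the library's size factor). Symbols from GENCODE M21 (GRCm38) matched 13069 of 13201 rows. A gene was tested if 3 or more libraries reached a normalized count of 10 (12846 genes), on the deposited values, in limma 3.58.1 (R 4.3.3): one mean per group over all 13 libraries, eBayes with trend, Benjamini-Hochberg adjustment at 0.05 within each comparison. "Passed" and "called" refer to this. Voom used library sizes scaled by a trimmed mean of log ratios. Python 3.11.15, numpy 2.4.6, pandas 2.3.3 and matplotlib 3.10.9 were used for tables and figures. The limma test was also run on data simulated from the means and spreads of these libraries.

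The genes and lists were chosen with earlier results of these data known. Named were Map2k1, the 7 genes, other tetraspanins that passed or were among the 5 highest per kilobase, up to 6 passing genes of each other list by smallest p, and the 3 genes most correlated with each of the 7. Other genes that passed on a list are named with their count. Alternatives were filters, pseudocounts, quantile scaling, voom, only the compared groups, year as a term, A3 and D4 averaged, an adjusted p of 0.1, gene length and each library left out. One list of marker genes is not reported here. The limit for a count of 0 covers counting error only; the 95% intervals are limma's and carry the spread between libraries.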

Additional observations from a re-analysis of the deposited data

Results flagged for a closer look

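In WT cells after 5-FU, Cd53 was lowest in A4, at 305 normalized counts, far from the 478 to 501 of A2, A3 and D4. In the same group Tspan4 was highest in A4, at 4431, far from the 3624 to 3722 of the others. Of 15 genes checked in this group of 4 libraries, these 2 had such a distant library; A3 and D4 are closely alike, which narrows the range of the others, and its part in these gaps was not tested. Chance alone gives about 1 such gap in 20 groups.

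The genotype effect after 5-FU differed from that in untreated cells for 3 tetraspanins by the limma interaction. The difference on the log2 scale was -0.97 for Cd9 (adjusted p = 0.0393), -1.63 for Tspan8 (adjusted p = 0.00671) and -1.11 for Tspan32 (adjusted p = 0.00907).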

How the results depend on the processing

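The number of the 7 genes called between KO and WT after 5-FU, 2, became 1 with voom and lay between 0 and 2 with single libraries left out. With year as a term the WT response to 5-FU went from 2 to 1 and the KO response from 4 to 0; in KO cells that fit rests on the year difference seen in WT, which only D4 measures, under a year label that its likeness to A3 puts in doubt. The interaction, 1 call, became 0 with log2(normalized count + 0.5), with A3 and D4 averaged and with year as a term, and lay between 0 and 2 with single libraries left out. It gave 2, Cd53 and Cd9, without untreated WT D3. It gave 0 without untreated WT D1, untreated KO D4, D5 or D6, 5-FU WT A3, A4 or D4, or 5-FU KO A5 or A6. The other 99 values of these counts lay within 1.5 times the count reported. The rise of Cd9 in WT cells passed in all 23 alternatives. The cause of these shifts was not tested.

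Small differences that had not passed changed sign. Between untreated genotypes, quantile scaling gave -0.022 for Cd63 and -0.093 for Cd81, and Cd81 lay between -0.088 and 0.19 with single libraries left out. Between genotypes after 5-FU, Cd82 lay between -0.0020 and 0.12 with single libraries left out. In the WT response Cd151 was 0.035 with A3 and D4 averaged and lay between -0.17 and 0.047 with single libraries left out. In the KO response quantile scaling gave -0.027 for Cd9 and 0.06 for Cd151, year as a term 0.18 for Cd37, voom 0.010 for Cd151, and single libraries left out -0.12 to 0.076 for Cd151. The Cd151 interaction was -0.039 with A3 and D4 averaged, -0.027 with year as a term and -0.080 to 0.16 with single libraries left out. Quantile scaling and year are the settings that turned genes other than Cd151 without leaving out a library.

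No paired analysis was possible because the groups share at most 1 replicate label. Cd53 stood at 2 reads in 3 untreated libraries (WT D3, KO D4 and KO D6), too few to measure its level there. Untreated WT D2 held 273 reads of Cd53 with fewer total reads, 14232268 against 15289647, 17532975 and 15544452. The cause of this spread was not tested.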
